A study of Mus musculus with 6 samples.

Results

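The 10 genes described here make, cut or bind hyaluronan in the mouse lung. They were Has1, Has2 and Has3 (synthases), Hyal1, Hyal2 and Cemip (breakdown), and Cd44, Tnfaip6, Lyve1 and Stab2 (a binding protein and receptors). They were chosen by name, 10 of 22815 genes with a named probe that kept a spot on every array, and each was measured by its probe with the highest mean processed signal over 6 arrays. All 10 passed the filter on dim probes, and 9 were well above background on all 6 arrays. Has3 was not well above background in saline replicate 3, so it passed through the rhTM group only.

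The lungs came from male C57BL6 mice, 10 weeks old, that had been starved for 16 h before LPS at 20 mg/kg i.p. A control group then received saline and a treated group recombinant human thrombomodulin (rhTM), a soluble form of the endothelial anticoagulant receptor, at 3 and 24 h after LPS. Lungs were taken at 30 h from 3 mice per group. Every mouse had therefore received LPS and lungs without LPS are not analysed here. Total RNA of each lung was hybridised to its own 1-colour Agilent array. As markers of the tissue, 8 genes of alveolar epithelium (Sftpc, Sftpb, Sftpa1, Abca3, Lamp3, Ager, Hopx and Aqp5) and 10 of blood endothelium were well above background on all 6 arrays.

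Hyaluronan is a long, unsulfated glycosaminoglycan of the glycocalyx, the sugar coat on the luminal side of endothelial cells. Unlike heparan sulfate, it is not attached to a core protein. Synthases in the plasma membrane extrude it from sugar nucleotides, surface receptors hold it, and hyaluronidases cut it into fragments that lysosomes degrade. The question was which of these steps differed in RNA level between rhTM-treated and saline-treated lungs after LPS.

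Values are log2 signals minus the 75th percentile of the array, so that a value of 0 equals that percentile and a difference of 1 is a doubling. Levels of different genes were not compared, because each probe binds with its own efficiency. The arrays lay on 2 slides, each with its own scan. On slide 2 were saline replicate 1 and rhTM replicate 3, and on slide 1 the other 4 arrays. The spike-in controls of saline replicate 1 had a slope of 0.826, which the scanner software marked as out of range, against 1.07 to 1.09 on the other arrays. In the authors' table of the same arrays, the column of saline replicate 1 equalled the scanner output of rhTM replicate 2 at 99.9% of probes (within 0.1%), and the column of rhTM replicate 2 that of saline replicate 1. The labels do not settle which assignment is right. Results follow the scanner output, and values by the table stand beside them. By the table slide 2 held 2 rhTM arrays and no saline array.

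None of the 10 genes differed between the groups past the adjusted threshold. With limma and Benjamini-Hochberg adjustment over 16362 genes, 0 of the 10 passed 0.05, as did 0% of all genes, and the adjusted p was 0.9999 for each of the 10. The table gave 0 of 10 as well, also beside 0% of all genes. At an unadjusted p under 0.05 there was 1 gene by the scanner output, Has1, where 1.86% of all genes were. There were 5 by the table (Has2, Has3, Hyal2, Cd44 and Tnfaip6), or 4 without Has3, where 14.0% of all genes were. The mean was higher with rhTM for 7 of 10 genes by the scanner output (50.7% of all genes) and for 6 of 10 by the table (46.0%). Across the 10 the median log2 fold change stood at 0.27 (scanner output) and 0.43 (table), against 0.0026 and -0.02 over all genes tested. Without Has3, admitted through the group where it was higher, the mean was higher for 6 of 9 (median 0.18) by the scanner output and for 5 of 9 (median 0.39) by the table.

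**Figure D1:**
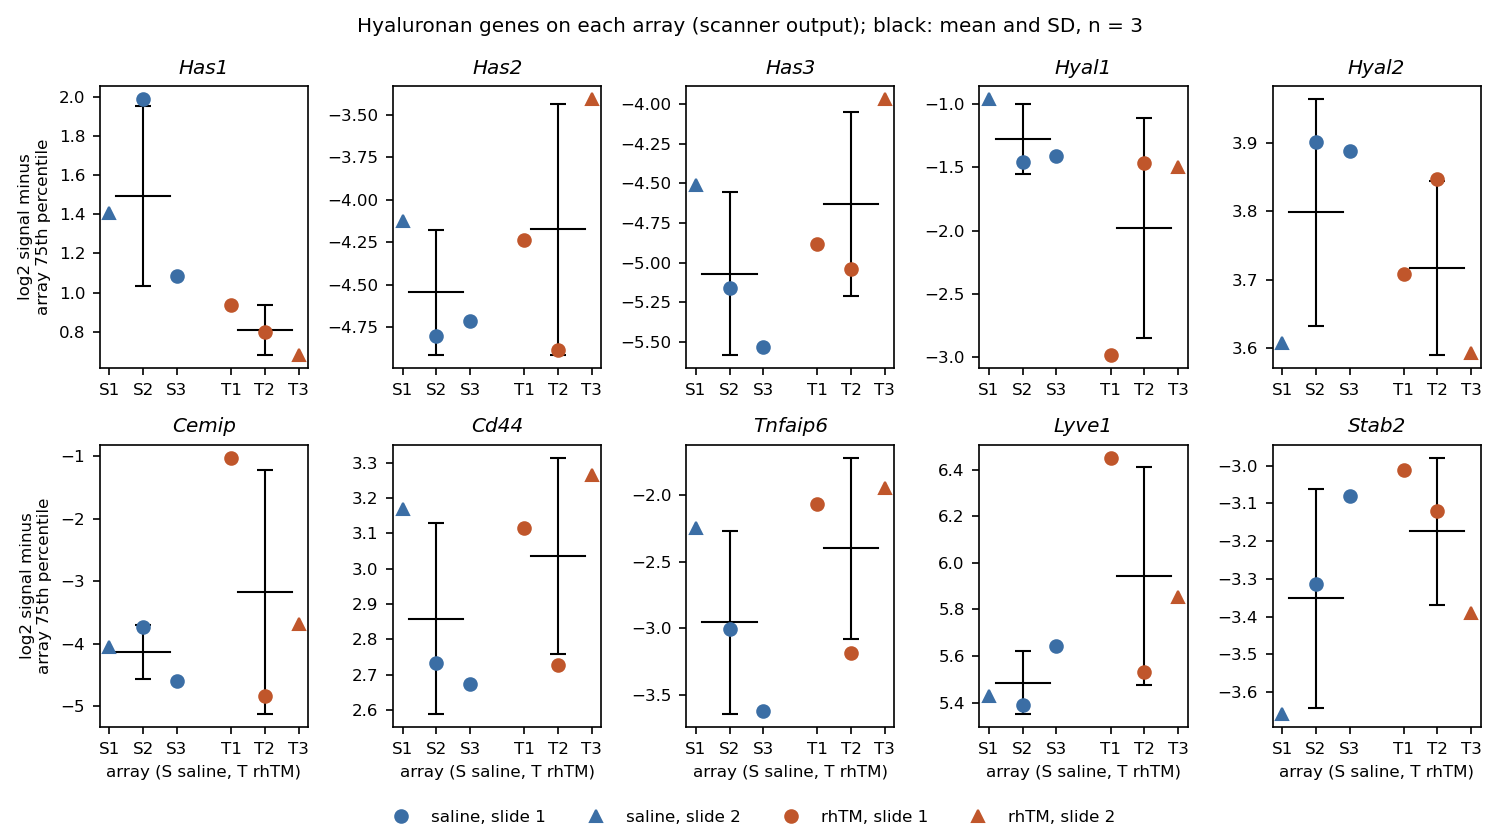
Log2 signal minus the array's 75th percentile (y axis) of the 10 hyaluronan genes on the 6 arrays of the scanner output (x axis), with circles for slide 1, triangles for slide 2 and black lines for the group mean and SD (n = 3). The rhTM values of Has1 lie below every saline value, rhTM replicate 1 stands apart for Cemip, Hyal1 and Lyve1, and the triangles are highest for Has2, Has3 and Cd44.

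Has1 encodes a synthase found in mesothelial cells and fibroblasts, among others. Its log2 values were 1.40, 1.99 and 1.08 in saline replicates 1, 2 and 3 and 0.94, 0.80 and 0.68 in rhTM replicates 1, 2 and 3. Every array labelled rhTM thus lay below every array labelled saline, with a gap of 0.14 between the nearest. The group means were 0.81 ± 0.13 with rhTM and 1.49 ± 0.46 with saline (SD, n = 3). Has1 was 1.61-fold higher in the saline group, a log2 fold change of -0.69 with rhTM (standard error, SE, 0.24, 95% confidence interval -1.25 to -0.12, limma unadjusted p = 0.0235 and adjusted p = 0.9999). The exact two-sided permutation test on the arrays gave p = 0.1, the smallest that 3 against 3 allow. The difference was of similar size on both slides, at -0.67 on slide 1 and -0.72 on slide 2, where it rests on saline replicate 1 and rhTM replicate 3 alone. Leaving out saline replicate 2, the highest array, gave -0.44.
By the authors' table the groups overlapped for Has1, with means of 1.01 ± 0.37 for rhTM and 1.29 ± 0.62 for saline (SD, n = 3) and a log2 fold change of -0.28 (limma adjusted p = 0.709). On the 4 arrays that both sources assign alike (saline replicates 2 and 3, rhTM replicates 1 and 3) the difference was -0.73 (limma adjusted p = 0.672). By the table without saline replicate 2 it was 0.068.

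Mesothelial cells line the pleura and secrete hyaluronan. All 6 mesothelial markers measured (Msln, Upk3b, Wt1, Lrrn4, Upk1b and Gpm6a) also had a lower mean in the rhTM group (median of their log2 fold changes -0.61), and 0 passed the adjustment. Their summed level, in multiples of the array's 75th percentile, ran from 34.0 to 52.7 in the saline group and from 23.6 to 38.1 in the rhTM group, so that the groups overlapped. By the table these ranges were 37.4 to 52.7 and 23.6 to 34.0, without overlap, the median was -0.75, and 5 of the 6 markers had every rhTM array below every saline array (12.0% of all genes). Saline replicate 2 was highest for Has1 and for this sum. By the scanner output the sum in rhTM replicate 2 was 38.1, above saline replicates 1 and 3, whereas its Has1 value was below both. Fibroblast markers had a higher mean with rhTM for 7 of 9 genes (median 0.22) by the scanner output and for 5 of 9 (median 0.19) by the table. The part of either cell type in the level of Has1 was not tested, and in whole lung fewer cells of a type and less RNA per cell cannot be told apart.

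**Figure D2:**
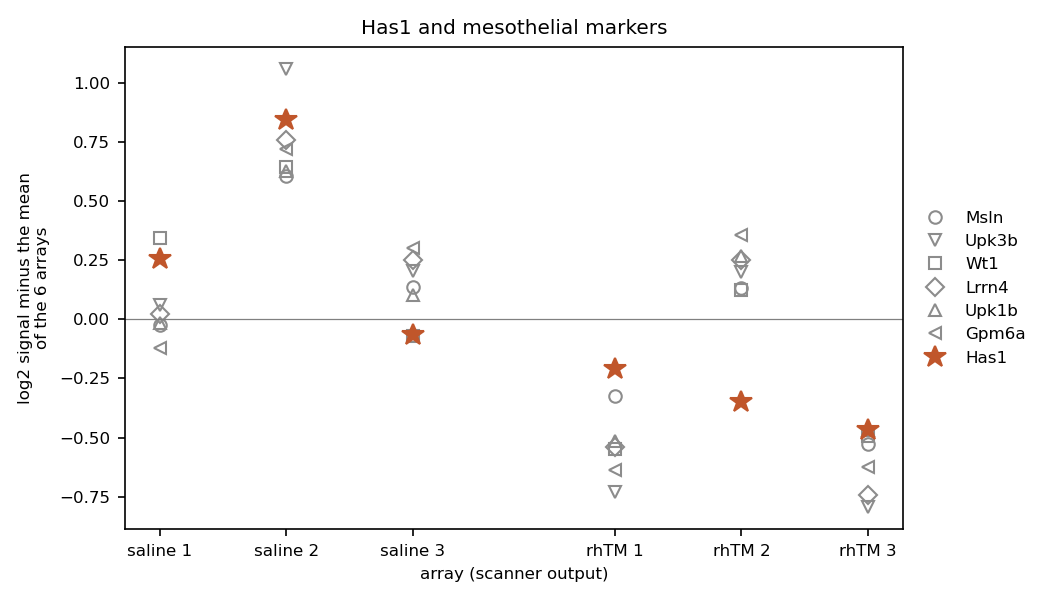
Log2 signal minus the gene's mean over the 6 arrays (y axis) for Has1 (star) and 6 mesothelial markers (open symbols) on each array of the scanner output (x axis). Saline replicate 2 is highest for all 7 genes, and in rhTM replicate 2 the markers lie above 0 while Has1 lies below.

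The 250 bases before the start of Has1 are shown as the regulatory sequence of the synthase whose groups did not overlap by the scanner output. The sequence is from RefSeq (GRCm38.p6, chr17:17855189-17855438, minus strand), 5′ to 3′, with motif matches in capitals.
Has1: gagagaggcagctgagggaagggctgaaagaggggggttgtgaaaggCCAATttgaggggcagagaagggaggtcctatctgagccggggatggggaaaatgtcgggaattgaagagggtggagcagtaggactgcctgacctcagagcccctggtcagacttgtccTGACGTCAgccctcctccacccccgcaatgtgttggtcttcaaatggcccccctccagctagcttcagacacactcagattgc
The capitals mark CCAAT, the core of the CCAAT box, and TGACGTCA, the palindromic cAMP response element. Of 32851 promoters of this length in the table, 33.85% held CCAAT and 1.55% held TGACGTCA on either strand.

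Has2 encodes the synthase without which mouse embryos die, and Has3 a further synthase of the family. The log2 values of Has2 were -4.12, -4.80 and -4.71 in saline replicates 1, 2 and 3 and -4.23, -4.88 and -3.41 in rhTM replicates 1, 2 and 3. Those of Has3 were -4.51, -5.16 and -5.53 with saline and -4.88, -5.04 and -3.97 with rhTM. For both genes rhTM replicate 3 was highest and saline replicate 1 second, so that the 2 arrays of slide 2 lay above the 4 of slide 1 and the groups overlapped. The log2 fold change by the scanner output was 0.37 for Has2 (95% confidence interval -0.54 to 1.28; exact permutation test, p = 0.7) and 0.44 for Has3 (-0.42 to 1.29; p = 0.4). Has3 was higher with rhTM on slide 1 (0.39) and, between single arrays, on slide 2 (0.54). With the slide as a block its unadjusted limma p went from 0.263 to 0.0214 (adjusted p = 0.920). Without rhTM replicate 3 the log2 fold change was -0.014 for Has2 and 0.11 for Has3.
By the table, every rhTM value was above every saline value for both synthases. Has2 had means of -3.92 ± 0.45 with rhTM and -4.80 ± 0.09 with saline (SD, n = 3), a log2 fold change of 0.88 (SE 0.22, limma adjusted p = 0.313). Has3 had means of -4.45 ± 0.46 and -5.24 ± 0.26 (SD, n = 3), a difference of 0.79. As Has3 was admitted through the rhTM group, where its mean is higher, its values are a description and its p-values are no support for a difference. Both probes were dim, and after normexp background correction of the scanner output the log2 fold changes were 0.20 and 0.17.

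Hyal1, the lysosomal hyaluronidase, had log2 values of -0.96, -1.45 and -1.41 in saline replicates 1, 2 and 3 and of -2.99, -1.46 and -1.50 in rhTM replicates 1, 2 and 3. Every rhTM array was below every saline array, but the nearest arrays differed by only 0.0069, and rhTM replicate 1 lay far below the other 5. The log2 fold change was -0.71 (SE 0.42, 95% confidence interval -1.70 to 0.29, limma adjusted p = 0.9999), and without rhTM replicate 1 it was -0.21. By the table the groups overlapped, at -0.37 (limma adjusted p = 0.730), and without rhTM replicate 1 the log2 fold change was 0.21.
Hyal2, the hyaluronidase anchored in the cell membrane that cuts long chains, varied least of the 10 genes, with an SD over 6 arrays of 0.14. Its log2 values ran from 3.61 to 3.90 with saline and from 3.59 to 3.85 with rhTM, and the log2 fold change was -0.08 (95% confidence interval -0.41 to 0.25; -0.021 without rhTM replicate 3 and -0.18 without saline replicate 1). By the table every rhTM value was below every saline value, at -0.24 (95% confidence interval -0.46 to -0.02, limma adjusted p = 0.337).

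Cemip, which encodes a protein needed by fibroblasts to break down hyaluronan, varied most, with an SD over 6 arrays of 1.37. Its log2 values were -4.06, -3.74 and -4.60 in saline replicates 1, 2 and 3 and -1.03, -4.83 and -3.68 in rhTM replicates 1, 2 and 3. The high array was rhTM replicate 1, while rhTM replicate 2 was the lowest of all, so that the groups overlapped. The log2 fold change was 0.96 (SE 0.89, limma adjusted p = 0.9999; p = 0.6 in the exact permutation test), and without rhTM replicate 1 it was -0.12. By the table it was 1.47 (limma adjusted p = 0.435), and 0.52 without rhTM replicate 1. A second, dimmer probe of Cemip was well above background on 1 array only, rhTM replicate 3. It was highest there and not well above background in rhTM replicate 1, so the high value of that array was seen with the brighter probe alone. The dimmer probe had every rhTM array above every saline array by the scanner output (log2 fold change 1.14), unlike the brighter one, and overlapped by the table (0.96). Most of its values were not well above background.

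The array of rhTM replicate 1 stood apart from the other 5 in many genes. It lay above all other arrays for 3 of the 10 hyaluronan genes (Cemip, Lyve1 and Stab2) and for 29.8% of all genes, and below them for 1 (Hyal1) and for 26.6%. Of 15764 genes well above background on all 6 arrays, those nearest in pattern to Cemip were Mcoln2, Mfsd2a and Kcne4, with root mean square differences between mean-centred log2 profiles of 0.31, 0.37 and 0.45. For Hyal1 they were Zscan20, Hlf and Nrg2, at 0.10, 0.13 and 0.14. The median over all genes was 1.25 for Cemip and 0.67 for Hyal1. As the choice by pattern fixed, all 6 had their extreme value in rhTM replicate 1 (2.14, 2.46 and 1.79 above the gene's mean for the neighbours of Cemip, and -1.33, -1.42 and -1.21 for those of Hyal1).

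The sequences before the starts of Cemip and Hyal1, the pair with the most extreme values in that array, are shown from RefSeq (GRCm38.p6; chr7:84086506-84086755, minus strand and chr9:107576700-107576949, plus strand). Capitals mark matches to TATAAA, to GGGCGG (the GC box) and to CCAAT, each on either strand.
Cemip: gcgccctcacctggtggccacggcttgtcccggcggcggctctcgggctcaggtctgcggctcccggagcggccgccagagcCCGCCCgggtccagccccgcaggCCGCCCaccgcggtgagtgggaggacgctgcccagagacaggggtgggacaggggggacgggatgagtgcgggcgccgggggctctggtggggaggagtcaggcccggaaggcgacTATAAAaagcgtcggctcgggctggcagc
Hyal1: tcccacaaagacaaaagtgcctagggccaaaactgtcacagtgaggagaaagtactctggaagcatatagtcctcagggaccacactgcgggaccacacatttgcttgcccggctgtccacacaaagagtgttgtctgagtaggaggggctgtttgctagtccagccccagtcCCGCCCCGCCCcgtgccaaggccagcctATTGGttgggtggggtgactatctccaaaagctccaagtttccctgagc
Cemip had a TATAAA 29 bases before the start and the GC box in 2 places, and Hyal1 had the CCAAT box in 1 place and the GC box in 2 overlapping places, with the last 2 motifs in reverse orientation throughout. The TATA motif was found in 12.37% and the GC box in 32.74% of all 32851 promoters.

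**Figure D3:**
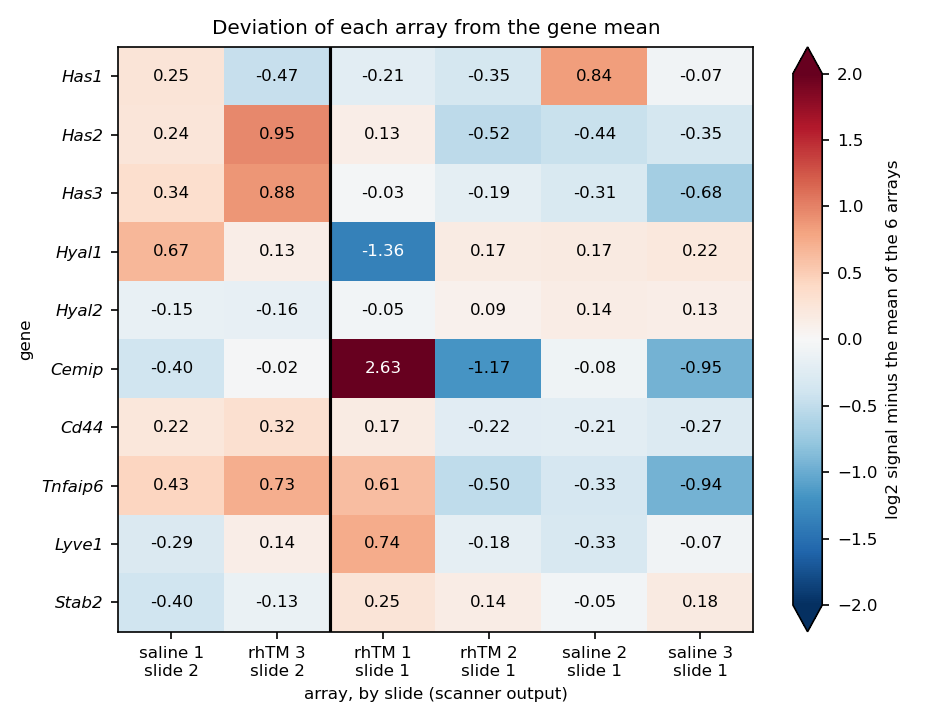
Log2 signal of the 10 hyaluronan genes (rows) minus the gene's mean over the 6 arrays of the scanner output (columns, with slide 2 left of the black line). Colours are clipped at 2 in both directions and the numbers give the values, of which 2.63 (Cemip) and -1.36 (Hyal1) in rhTM replicate 1 are the most extreme.

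Tnfaip6 encodes TSG-6, an inflammation-induced secreted protein that transfers heavy chains of inter-α-inhibitor to hyaluronan. Its log2 values were -2.24, -3.01 and -3.62 in saline replicates 1, 2 and 3 and -2.07, -3.18 and -1.95 in rhTM replicates 1, 2 and 3. High arrays were therefore saline replicate 1 and rhTM replicates 1 and 3, the others were low, and the groups overlapped. The log2 fold change was 0.56 (SE 0.44, 95% confidence interval -0.50 to 1.61, limma adjusted p = 0.9999; p = 0.3 in the exact permutation test). Leaving out single arrays moved it between 0.23 (without saline replicate 3) and 0.95 (without rhTM replicate 2).
By the table the 3 high arrays were the rhTM group. Means were then -2.09 ± 0.15 with rhTM and -3.27 ± 0.32 with saline (SD, n = 3), a 2.27-fold higher level and a log2 fold change of 1.18 (SE 0.18, 95% confidence interval 0.75 to 1.61, limma adjusted p = 0.313; p = 0.1 in the exact permutation test). On the 4 arrays that both sources assign alike the log2 fold change was 1.31 (limma adjusted p = 0.665). In the table without rhTM replicate 1 it was 1.17 (limma adjusted p = 0.0467), where 3.47% of all genes passed, with both remaining rhTM arrays on slide 2 and all saline arrays on slide 1.

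The sequence before the start of Tnfaip6 is shown for the gene whose groups were farthest apart by the table in units of its standard error (RefSeq, GRCm38.p6, chr2:52037863-52038112, plus strand). Capitals mark matches to the CCAAT box, the GC box and the AP-1 motif (TGANTCA) on either strand.
Tnfaip6: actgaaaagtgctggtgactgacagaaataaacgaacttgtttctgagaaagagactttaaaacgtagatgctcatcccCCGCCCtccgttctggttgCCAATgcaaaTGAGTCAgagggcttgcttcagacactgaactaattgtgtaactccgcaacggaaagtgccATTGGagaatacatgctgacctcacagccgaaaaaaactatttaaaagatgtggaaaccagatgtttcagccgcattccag
TGAGTCA stood 142 bases before the start, and 6.75% of the 32851 promoters held TGANTCA. An NF-kB motif was found in 3.9% of all promoters and, of the 7 members with a promoter in the table, in that of Hyal2 only.

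Cd44 encodes the main surface receptor for hyaluronan on leukocytes and many other cells. By its brightest probe the log2 values were 3.17, 2.73 and 2.67 in saline replicates 1, 2 and 3 and 3.12, 2.73 and 3.27 in rhTM replicates 1, 2 and 3. The same 3 arrays as for Tnfaip6 were the high ones, and the groups overlapped by the scanner output, with a log2 fold change of 0.18 (95% confidence interval -0.30 to 0.66; from 0.063 without rhTM replicate 3 to 0.33 without saline replicate 1). By the table every rhTM value was above every saline value, at 0.47 (SE 0.09, limma adjusted p = 0.313), and without rhTM replicate 1 it was 0.51 (limma adjusted p = 0.0434, in the same fit of slide 2 rhTM arrays against slide 1 saline arrays as for Tnfaip6). The probes of Cd44 disagreed by the table. The second brightest gave -0.08 and the dimmest 0.26, and in the second brightest the slide 2 arrays, at 1.47 and 1.38, were the lowest of the 6. Neutrophil markers had a higher mean with rhTM for 7 of 9 genes by either source, with medians of 0.10 and 0.20, and 0 passed the adjustment. Their sums overlapped by the scanner output (942 to 1099 with saline, 957 to 1225 with rhTM, in multiples of the 75th percentile) but not by the table (942 to 1046 and 1088 to 1225), where 2 of 9 had every rhTM array above every saline array (9.68% of all genes). Among lymphocyte markers Cd4 alone stood at 22.6 and 19.4 times the array's 75th percentile on the slide 2 arrays and at 3.01 to 4.19 on the others, while the other 7 summed to 4.50 and 5.33 on slide 2 and to 4.90 to 6.30 elsewhere. The part of these cells in the level of Cd44 was not tested.

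Lyve1 encodes a receptor of lymphatic endothelium and of some tissue macrophages. Its log2 values were 5.43, 5.39 and 5.64 in saline replicates 1, 2 and 3 and 6.45, 5.53 and 5.85 in rhTM replicates 1, 2 and 3. The highest array was rhTM replicate 1, and rhTM replicate 2 was below saline replicate 3. The log2 fold change was 0.46 (SE 0.24, 95% confidence interval -0.11 to 1.03, limma adjusted p = 0.9999), and 0.20 without rhTM replicate 1. By the table it was 0.39 (limma adjusted p = 0.504), with 0.12 without rhTM replicate 1 and 0.63 without rhTM replicate 2. Other lymphatic markers (Prox1, Flt4, Pdpn, Mmrn1, Reln and Ccl21a) had log2 fold changes from -0.29 to 0.10 by the scanner output, and in rhTM replicate 1 they differed from the mean of the other 5 arrays by -0.37 to 0.13, against 0.88 for Lyve1. By the table they ran from -0.41 to 0.44, and Prox1 (0.44) and Flt4 (0.40) had every rhTM array above every saline array (9.68% of all genes). Macrophage markers had a lower mean with rhTM for 7 of 10 genes (median -0.11) by the scanner output, 2 of them with every rhTM array below every saline array (2.57% of all genes), and a higher mean for 2 of 10 (median -0.18) by the table. Markers of blood endothelium had a higher mean with rhTM for 4 of 10 genes (median -0.15) by the scanner output. By the table it was 3 of 10 (median -0.34), and 3 had every rhTM array below every saline array (12.0% of all genes). In rhTM replicate 1 these 10 markers differed from the mean of the other 5 arrays by -2.01 (Calcrl) to 0.70 (Cldn5). The part of these cells in the level of Lyve1 was not tested.
Stab2 encodes a scavenger receptor that clears hyaluronan in the sinusoids of liver, spleen and lymph node. Its log2 values ran from -3.66 to -3.08 with saline and from -3.39 to -3.01 with rhTM, a log2 fold change of 0.18 (95% confidence interval -0.27 to 0.62; 0.023 without saline replicate 1 and 0.31 without saline replicate 3) in the scanner output and of -0.18 (-0.61 to 0.25) in the table. Of 8 markers of liver sinusoids and hepatocytes, Clec4g and Serpina1a were well above background on all 6 arrays, Oit3 was on 4, Alb on 2, Ttr and Fga on 1 each, and Apoa1 and Apoh on 0. A second, dimmer probe of Stab2 gave 0.02 by the scanner output.

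**Figure D4:**
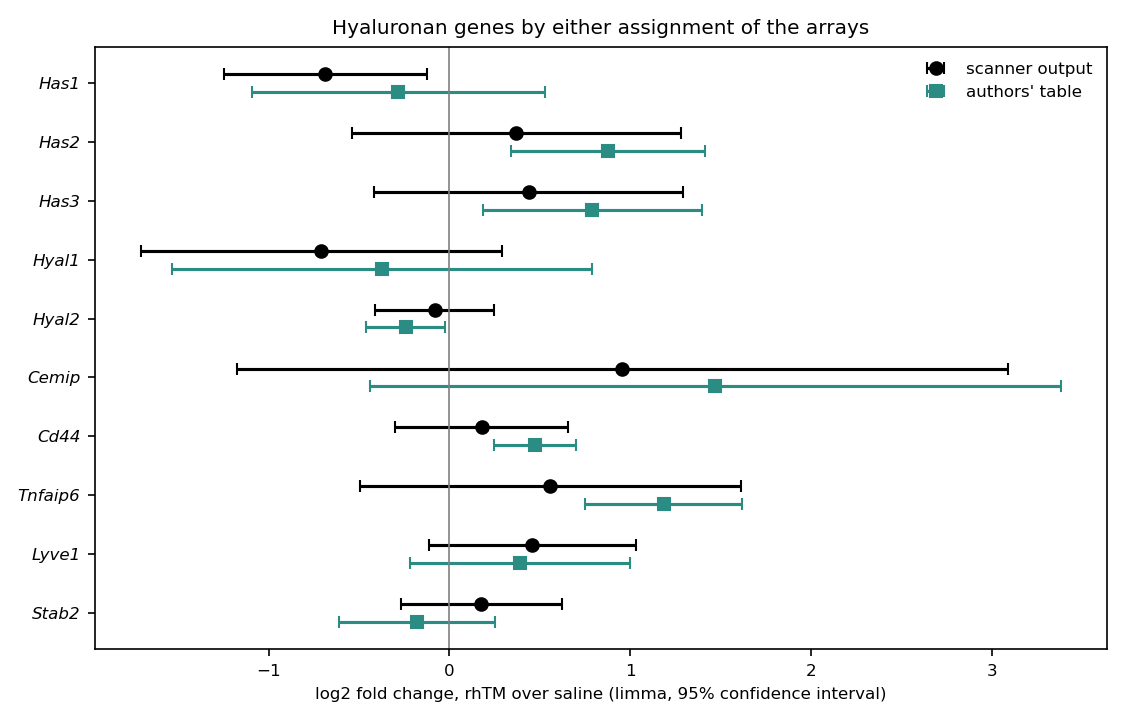
Log2 fold change of rhTM over saline (x axis) for the 10 hyaluronan genes (y axis), with circles for the scanner output, squares for the authors' table and bars for limma's 95% confidence interval. The interval excludes 0 for Has1 by the scanner output and for Has2, Has3, Hyal2, Cd44 and Tnfaip6 by the table, before any adjustment.

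By the scanner output Has1 and Hyal1, 2 of the 10 genes, had every rhTM array below every saline array (2.57% of all genes), and 0 had every rhTM array above (2.95%). By the table the groups did not overlap for 4 higher (Has2, Has3, Cd44 and Tnfaip6, or 3 without Has3, against 9.68% of all genes) and 1 lower (Hyal2, against 12.0%). Both sources have 4 of the 6 arrays in the same group, so these counts are not independent of each other.
Entering the slide as a block left each log2 fold change of the scanner output as it was and gave each of the 10 genes an adjusted p of 0.920 from limma. Unadjusted p was under 0.05 for 2 of the 10 in that fit, Has1 (limma unadjusted p = 0.0346, adjusted p = 0.920) and Has3, or 1 without Has3, against 2.62% of all genes. The slide term of that fit compares slide 2 with slide 1 within groups. It was 0.89 for Has2 (SE 0.23, limma adjusted p = 0.166), 0.91 for Has3 (SE 0.15, adjusted p = 0.0661), 0.40 for Cd44 (adjusted p = 0.258), 0.87 for Tnfaip6 (adjusted p = 0.307) and -0.39 for Stab2 (adjusted p = 0.215). After adjustment 0 of the 10 passed, beside 1.42% of all genes. At an unadjusted p under 0.05, 4 of 10 passed (Has2, Has3, Cd44 and Stab2), against 16.9% of all genes. Both slide 2 arrays lay above the other 4 for 3 of 10 genes (13.0% of all genes) and below them for 2 (19.7%). By the table this slide difference and the group difference share the arrays of slide 2. Blocking on the slide there sets only rhTM replicate 1 against the saline group. Cemip at 3.37 (limma adjusted p = 0.0386) and Hyal1 at -1.55 (adjusted p = 0.0392) passed, as did 2.65% of all genes, which restates the values of that array and adds no support.

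Of 38 other genes of the hyaluronan pathway, 29 were tested. By the scanner output 14 of the 29 had a higher mean with rhTM, 0 passed the adjustment, 0 had an unadjusted p under 0.05 and the median difference was -0.00021. With only the 26 genes well above background on all 6 arrays, thus without Hyal3, Hyal6 and Itih2, 13 had a higher mean (median 0.055). The groups were apart for 3 of the 29, higher with rhTM for 2 (Gnpnat1 and Itih4, against 2.95% of all genes) and lower for 1 (Ugp2, which makes UDP-glucose, against 2.57%). For Ugp2 the log2 fold change was only -0.031, the nearest arrays were 0.0084 apart, and the groups overlapped by the table. By the table the mean was higher for 16 of the 29 with a median of 0.0081, and 0 passed the adjustment. An unadjusted p under 0.05 was reached by 4 (Ptx3, Ambp, Itih2 and Gusb, against 14.0% of all genes), or 3 without Itih2. By the table Itih2 passed the filter only through the rhTM group and Hyal3 only through the saline group, each where its mean was higher. The count of 16 and its median include both genes and are a description only. The groups were then apart for 4, higher for Ptx3 and Layn (9.68% of all genes) and lower for Ambp and Gusb (12.0%). The genes of enzymes that make the sugar nucleotides were Ugp2, Ugdh, Gfpt1, Gfpt2, Gnpnat1, Pgm3 and Uap1. By the scanner output 2 of these 7 had a higher mean with rhTM (median -0.0022). It was 4 of 7 by the table (median 0.0040). Gnpnat1, which acetylates glucosamine 6-phosphate, had the largest difference by the scanner output, at 0.31 (SE 0.16, and 0.16 without rhTM replicate 1). Its groups overlapped by the table. Of the other hyaluronidases 3 were tested, but Hyal3 and Hyal6 passed the filter only through the saline group, where their means were higher, so no count is given. Cemip2, a cell-surface hyaluronidase, had 0.25 (0.15 without rhTM replicate 1), and Hyal4, Hyal5 and Spam1 were not well above background on any array.
Among the genes listed as matrix partners of hyaluronan, 8 of 11 tested had a higher mean with rhTM by the scanner output (median 0.15). By the table it was 7 of 11 (median 0.034), counting Itih2, which was admitted there through the rhTM group. Ptx3, a pentraxin that crosslinks heavy chains on hyaluronan, had the largest difference. Its log2 values were -2.92, -3.83 and -4.23 in saline replicates 1, 2 and 3 and -1.66, -3.69 and -2.79 in rhTM replicates 1, 2 and 3. The highest 3 arrays were those of Tnfaip6 and Cd44. The log2 fold change was 0.95 (SE 0.55, limma adjusted p = 0.9999; 0.42 without rhTM replicate 1) by the scanner output, where the groups overlapped, and 1.46 (SE 0.35, limma adjusted p = 0.313) by the table, where they did not. Itih4, an inter-α-inhibitor heavy chain of the acute phase, was at 0.34 by the scanner output (limma adjusted p = 0.9999) and 0.13 without rhTM replicate 1, and overlapped by the table, at 0.14; Itih4, Ugp2, Ambp, Itih2 and Gusb were named after their values were seen. Of the other receptors, 3 of 5 had a higher mean with rhTM by the scanner output (median 0.11) and 2 of 5 by the table (median -0.089). Layn, which encodes the receptor layilin, had the largest difference by the scanner output, at 0.23.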

How the data were processed

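Each of 6 lungs (3 per group) had an array of its own. The authors deposited intensity values in 2 forms, the output of Feature Extraction 10.7.3.1 (linear, with background and spatial trend removed inside each array and no scaling between arrays) and a table of the same arrays. Control spots and spots flagged as outliers were removed before averaging by probe, which dropped 398 of 56605 probes. From log2 signals each array's 75th percentile was subtracted. Of the probes, 32994 were named through accessions and a RefSeq gene table (GRCm38.p6), whose build the promoter coordinates use. The brightest probe stood for a gene, and a gene was tested when that probe exceeded background clearly on each of 3 arrays of a group. Groups were taken from the sample titles and compared with limma 3.58.1 in R 4.3.3 (lmFit and eBayes), adjusted over all genes. Single genes were also tested with an exact two-sided permutation test. In simulated arrays (16362 genes, 200 changed, 3 against 3) limma found 51% of the genes changed by 1 log2 unit and 95% of those changed by 2. These shares are over all changed genes and are not the power for a single member. The SD over 6 arrays ran from 0.14 for Hyal2 to 1.37 for Cemip. How the slides, the deviating array of rhTM replicate 1 or exchanged labels would alter these shares was not tested. The number of arrays limits the precision. Members and lists were chosen with earlier results of these data known. Named genes were all members, in each list the other gene with the largest difference among those above background on all arrays, and the 3 nearest in pattern to each of the 2 most variable members. The counts of 1 list of other pathway genes are not reported here.  Alternatives were normexp on median spot signals (the planned mean signals are not in the scanner output used here; offset 50), quantile normalization, another percentile, the authors' table, other filters, the mean of a gene's probes, the slide or the replicate number as a block, arrays left out and the methods' t-test. The table without each array and the slide term were added after seeing the data.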

Additional observations from a re-analysis of the deposited data

How the results depend on the processing

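Of 239 values of the 10 genes under the alternatives, 223 kept their direction and their side of the threshold, 12 changed direction and 4 newly passed. Stab2 was -0.18 by the authors' table and -0.0035 without saline replicate 1 and rhTM replicate 2 together. With each array of the scanner output left out in turn, Cemip ranged from -0.12 to 1.78 and Has2 from -0.014 (without rhTM replicate 3) to 0.72. Leaving out single arrays of the table turned Has1 to 0.068 (without saline replicate 2) and Hyal1 to 0.21 (without rhTM replicate 1), over ranges of -0.53 to 0.068 and -0.80 to 0.21. Stab2 became -0.16, -0.25 and -0.14 without saline replicates 1, 2 and 3 and -0.35, -0.029 and -0.16 without rhTM replicates 1, 2 and 3. Cd44 (0.51) and Tnfaip6 (1.17) passed without rhTM replicate 1. Blocking the table on the slide, Cemip was 3.37 and Hyal1 -1.55, both newly past the threshold. The cause was not tested.
Over all genes, 0 passed in each alternative except the slide-blocked table, where 432 did, and the table without rhTM replicate 1, where 566 did (0 to 566 over its arrays left out). Of the other hyaluronan genes 1 passed in both cases, Ptx3, at 2.26 and 1.06 (0 to 1 over the arrays left out). Their median log2 fold change was 0.11 with no filter. Unadjusted p under 0.05 was reached by 305 genes by the scanner output, 339 by the methods' t-test and 2278 by the table. The methods' thresholds (fold of 2 or 0.5, P of 0.01) were passed by 3 higher and 3 lower by the scanner output, 1 higher and 0 lower by the methods' t-test, and 52 higher and 13 lower by the table. With the replicate block the fold changes were the same by construction, 0 genes passed and 376 had an unadjusted p under 0.05. Deviations of same-numbered arrays correlated at -0.30, 0.44 and -0.45, so the numbers were not taken as pairs. Normexp gave 0.17 for Has3, 0.20 for Has2 and 0.64 for Cemip. Has3 has no value under the stricter filter. The dim probes of Has2, Has3 and Cemip limit what can be said of them.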
